A study of Rattus norvegicus with 6 samples.

Results

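Hox clusters are the gene arrays that lay down position along the body axis and the limbs, and they also carry miRNA genes. The 4 miRNAs described here, rno-miR-10a-5p, rno-miR-10b, rno-miR-196a and rno-miR-196b (below without the prefix for rat), are guide arms encoded in these clusters, and they were chosen by name among the 677 rat miRNAs of the array. They were measured in rat tendon-derived stem cells (rTDSCs), clonogenic cells grown out of the patellar tendon of male 8-week-old Sprague Dawley rats, with colonies pooled, and used at passage 3. In the loading group, 3 samples were stretched along 1 axis on collagen-coated silicone plates, with 10% elongation at 0.5 Hz for 8 h per day, for 7 days. In the non-loading group, 3 samples were kept static on the same kind of plate for 7 days. The labels do not say whether the samples of a group came from separate animals, so the p-values measure only the spread between these samples, which may be technical. Each sample was hybridised in 1 colour to 1 of 6 arrays on 1 slide. All 4 miRNAs were detected by the scanner software on all 6 arrays, and none of them differed between loading and non-loading rTDSCs beyond the spread between arrays.

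miRNAs bind messenger RNAs mainly through the seed, bases 2 to 8 counted from the 5′ end, and lower their translation and stability. Hox cluster miRNAs are transcribed with the Hox genes around them and target Hox messenger RNAs in turn. miR-196 is known for cutting the Hoxb8 messenger RNA at a nearly fully paired site and is found in the embryonic hindlimb rather than the forelimb, while miR-10 acts on Hox genes such as Hoxd10. In the GRCr8 gene table, Mir10a lay between Hoxb5 and Hoxb4, Mir10b within the span of Hoxd4, Mir196a between Hoxc10 and Hoxc9, and Mir196b between Hoxa9 and Hoxa10. The array carries no Hox messenger RNA, so the Hox genes themselves were not measured, and whether these miRNAs reflect limb position was not tested.

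The mature sequences are shown to set the members beside each other and their closest relatives, and they are given from RefSeq (GRCr8) 5′ to 3′ with the seed in capitals. All 4 members matched an entry of that table, the array's miR-10b, miR-196a and miR-196b through the name of the 5′ arm.
miR-10a-5p: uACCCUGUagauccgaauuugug
miR-10b: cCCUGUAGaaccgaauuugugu
miR-196a: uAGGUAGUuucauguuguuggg
miR-196b: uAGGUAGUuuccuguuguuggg
miR-196c: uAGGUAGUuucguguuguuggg
miR-100: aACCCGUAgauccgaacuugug

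miR-10a-5p lies at chr10:81779730-81779752 on the plus strand, miR-10b at chr3:80035886-80035907 (plus), miR-196a at chr7:135988900-135988921 (plus) and miR-196b at chr4:82661149-82661170 (minus). The annotated miR-10b starts 2 bases further in than miR-10a-5p, so the annotated mature forms are 4 edits apart and have different seeds. The files do not give the 5′ end for which the array's miR-10b probes were designed. Over the 23 bases of miR-10a-5p, the miR-10b hairpin differs by 1 substitution, U12A, with positions counted from 1 at the 5′ end of miR-10a-5p. miR-196a and miR-196b also differ by 1 substitution, A12C, and share the seed AGGUAGU. Of the 693 mature sequences in the table, this seed was shared only by miR-196c, another copy between Hoxb13 and Hoxb9, which differs from miR-196a by A12G. No other mature sequence in the table had the seed of miR-10a-5p or that of miR-10b. miR-100, which is not a Hox cluster miRNA, was 3 edits from miR-10a-5p. The files do not give the probe sequences, so signal passing between related members through cross-hybridisation was not tested.

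To make arrays comparable, a signal was divided by the 75th percentile of 173 probes that were detected on every array. It is given as a percent of that percentile or as log2 of the ratio, where 0 is the percentile itself. Probes differ in how strongly they bind, so the signal of 1 miRNA is compared between samples and not with that of another miRNA. miR-196a, from the HoxC cluster, gave 152%, 143% and 120% of the percentile in non-loading replicates 1, 2 and 3. Under loading it gave 123%, 155% and 138%. The groups covered the same range, with the highest value on loading replicate 2 and the lowest on non-loading replicate 3. miR-196b, from the HoxA cluster, gave 54.4%, 58.0% and 48.3% in non-loading cells and 52.9%, 58.9% and 53.6% under loading. Its highest and lowest arrays after scaling were the same as those of miR-196a. The 75th percentile itself was lowest on loading replicate 2 (263 units) and highest on non-loading replicate 3 (362 units). Before scaling, miR-196a was highest on loading replicate 3 and lowest on loading replicate 1. miR-196b was then highest on non-loading replicate 2 and lowest on non-loading replicate 1.

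miR-10b, from the HoxD cluster, had log2 signals of -2.45, -2.47 and -2.54 in non-loading rTDSCs and of -2.49, -2.39 and -2.40 under loading. Loading replicates 2 and 3 lay above all non-loading arrays, and loading replicate 1 lay among them. miR-10a-5p, from the HoxB cluster, gave 5.33%, 5.53% and 4.97% in non-loading cells and 4.24%, 5.38% and 4.90% under loading. Loading replicates 1 and 3 were its lowest arrays, but loading replicate 2 lay above non-loading replicate 1. The groups thus overlapped for each of the 4 miRNAs, while over all 148 tested miRNAs they did not overlap for 15.5%, with loading above in 12.8% and below in 2.7%.

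**Figure D1:**
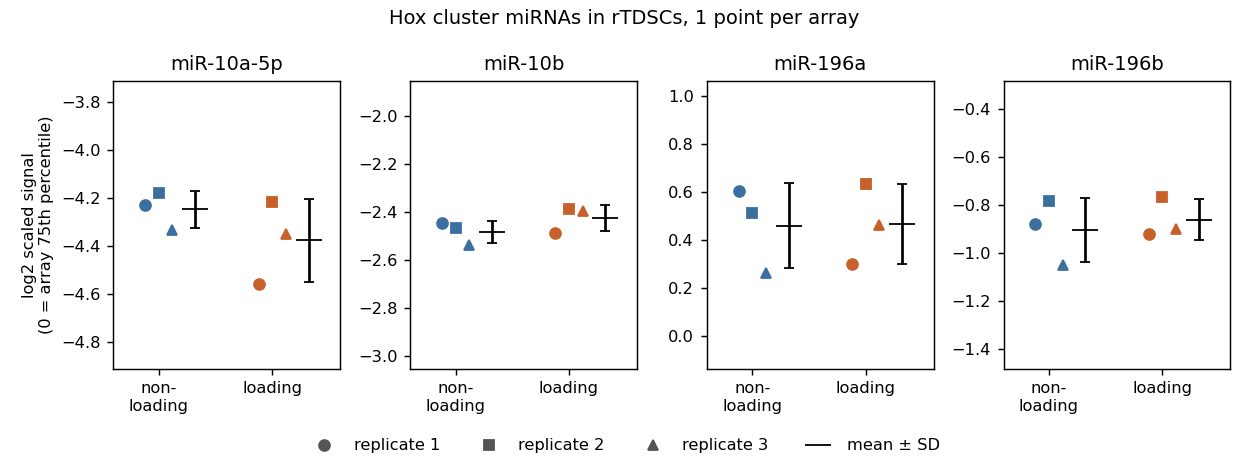
log2 scaled signal of the 4 miRNAs on each array (vertical axis, 0 is the array's 75th percentile, each panel spans the same height), with non-loading arrays in blue and loading arrays in orange and the mean ± SD of 3 arrays beside them. The groups overlap in every panel, and miR-10b has the narrowest spread, 0.15 from its lowest to its highest array.

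To ask whether mechanical loading changed the Hox cluster miRNAs, the groups were compared with limma over all 148 tested miRNAs. The log2 change, loading minus non-loading, was 0.01 for miR-196a (standard error 0.13, limma adjusted p = 0.988). A fold change between 0.804 and 1.26 lay within its 95% confidence interval. For miR-196b the log2 change was 0.04 (standard error 0.10, limma adjusted p = 0.903), with an interval of 0.871 to 1.22 as a fold change. The estimates of both miR-196 copies lay within their standard errors, and the intervals do not show that the copies were equal in the groups.

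For miR-10b the log2 change was 0.06 (standard error 0.07, limma adjusted p = 0.736), with an interval of 0.919 to 1.18 as a fold change. The residual SD of miR-10b was among the lowest of the array, with 6.76% of the tested miRNAs below it. For miR-10a-5p the log2 change was -0.13 (standard error 0.11, limma adjusted p = 0.724), with an interval of 0.758 to 1.10 as a fold change. It had the largest change of the 4 members and was the only one with a lower mean under loading. Exact permutation over the arrays gave two-sided p = 0.3 for miR-10a-5p and for miR-10b, p = 1 for miR-196a and p = 0.7 for miR-196b, where 3 arrays against 3 cannot go below 0.1.

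In limma, 0 of the 4 members passed an adjusted p of 0.05, against 0% of all tested miRNAs, and 0 had an unadjusted p under 0.05, against 9.46% (8.78% higher and 0.676% lower under loading). With the test named in the methods (Newman-Keuls), 0 of the 4 had an unadjusted p under 0.05, against 10.1% of all tested miRNAs, and 0 an adjusted one, against 1.35%. The median change of the members was 0.03 on the log2 scale, beside 0.06 over all tested miRNAs, and their median absolute change was 0.05, beside 0.11. Between 2.03% and 56.8% of the tested miRNAs had a smaller absolute change than the single members. The direction of the changes near 0 was not settled, since quantile normalization turned miR-10b, miR-196a and miR-196b to -0.0040, -0.0456 and -0.0341 without any adjusted p under 0.05. With the total gene signals of the scanner software and with quantile normalization, the groups did not overlap for miR-10a-5p, whose change of -0.24 and -0.29 had an unadjusted p of 0.0307 and 0.0398 in limma, and an adjusted p of 0.677 and 0.503. Without loading replicate 1 its change was -0.04, smaller in size than the 0.09, 0.09 and 0.07 of miR-10b, miR-196a and miR-196b.

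**Figure D2:**
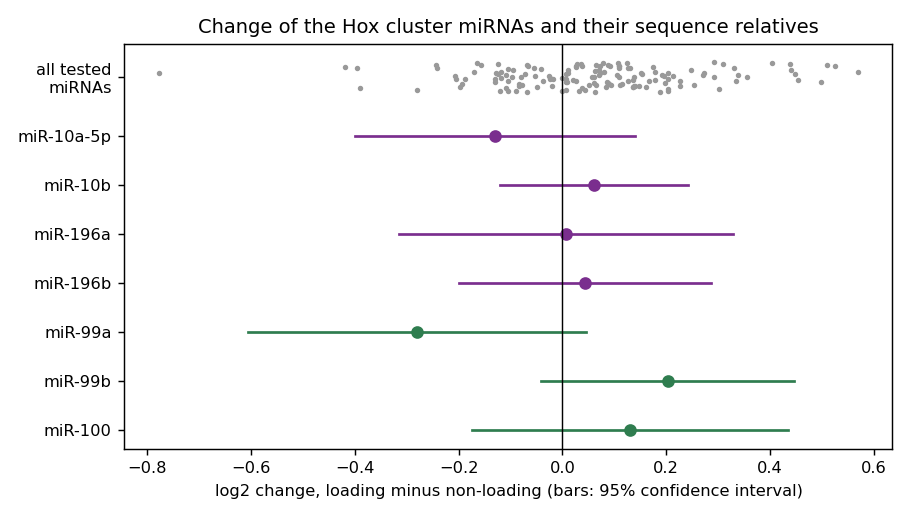
log2 change with its 95% confidence interval from limma (horizontal axis) for the 4 Hox cluster miRNAs in purple, their sequence relatives in green and, as grey points with no interval, all 148 tested miRNAs. Every interval shown spans 0, and the 4 purple points lie between -0.13 and 0.06.

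The ratio of the 2 miR-10 members and that of the 2 miR-196 members on the same array do not depend on the scale factor of the array. The absolute ratio also holds the strengths of the probes and is given only to be compared between arrays. The log2 ratio of miR-10a-5p to miR-10b was -1.78, -1.71 and -1.79 on the non-loading arrays and -2.07, -1.83 and -1.95 on the loading arrays. All 3 loading arrays lay below all 3 non-loading arrays. These sums include a miR-10a-5p probe with 0 of 60 spots and a miR-10b probe with 8 of 60 spots well above background. The brighter miR-10a-5p probe had 27 of 60 such spots. On non-loading replicate 3 and loading replicate 2, 0 of 10 spots of either miR-10a-5p probe were well above background. The ratios of these arrays, and so the order of the groups, cannot be read firmly. The non-loading mean was -1.76 ± 0.05 (SD, n = 3) and the loading mean -1.95 ± 0.12 (SD, n = 3), a difference of -0.19 (exact permutation test, two-sided p = 0.1, the smallest that 3 arrays against 3 allow). With 2 ratios examined, its Benjamini-Hochberg adjusted p by exact permutation was 0.2. On the brighter probes alone the groups overlapped and the difference was -0.16, and with normexp background correction after replacing outlying backgrounds it was -0.0282, again with overlap.

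For miR-196a over miR-196b, the log2 ratio was 1.48, 1.30 and 1.31 on the non-loading arrays and 1.22, 1.40 and 1.36 on the loading arrays. The groups overlapped, and the difference was -0.04 (exact permutation test, two-sided p = 0.7). The groups thus overlapped for the 2 miR-196 copies both singly and as a ratio.

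**Figure D3:**
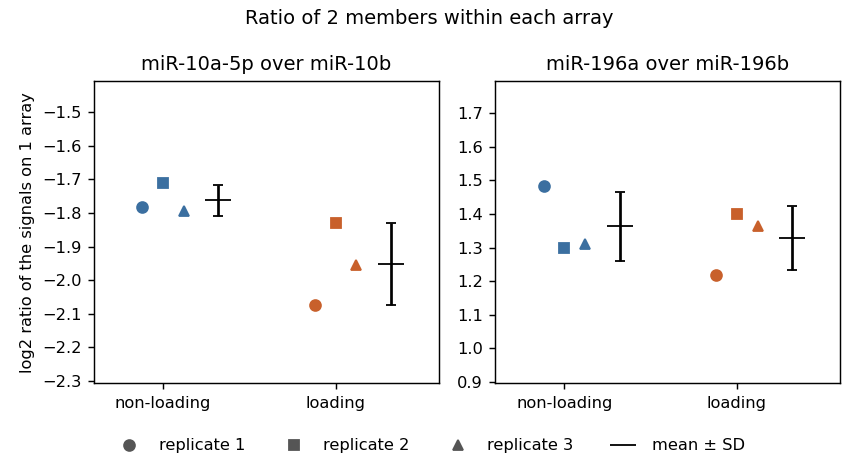
log2 ratio of the signals of 2 members on the same array (vertical axis), for miR-10a-5p over miR-10b on the left and miR-196a over miR-196b on the right, with the mean ± SD of 3 arrays. On the left the loading arrays sit between -2.07 and -1.83 and the non-loading arrays between -1.79 and -1.71, and on the right the groups overlap.

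How far each miRNA stood above background differed between the members and bears on how firmly their values can be read. Each member had 2 probes with 10 spots each on every array. For miR-196a and miR-196b, all 120 spots over the 6 arrays were well above background. The 2 probes of miR-196a gave 189 to 213 and 202 to 235 intensity units before scaling, and the 2 of miR-196b gave 124 to 143 and 25.7 to 36.7. Negative-control spots averaged 2.84 to 4.09 units on an array.

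For miR-10b, the brighter probe gave 43.5 to 56.4 units with all 60 spots well above background, and the dimmer one 6.07 to 8.94 units with 8 of 60 spots. The brighter probe of miR-10b had a log2 change of 0.03 with overlapping groups, and the dimmer one is too close to background for its change to be read. For miR-10a-5p, the brighter probe gave 9.41 to 12.1 units with 27 of 60 spots well above background, and the dimmer one 3.66 to 6.01 units with 0 of 60 spots, close to the negative controls. On the brighter probe of miR-10a-5p, 2, 10 and 0 of the 10 spots were well above background on non-loading replicates 1, 2 and 3, and 9, 0 and 6 on loading replicates 1, 2 and 3. The brighter probe had a log2 change of -0.14 with overlapping groups. miR-10a-5p was thus the member closest to background, and the number of its spots well above background varied within both groups.

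**Figure D4:**
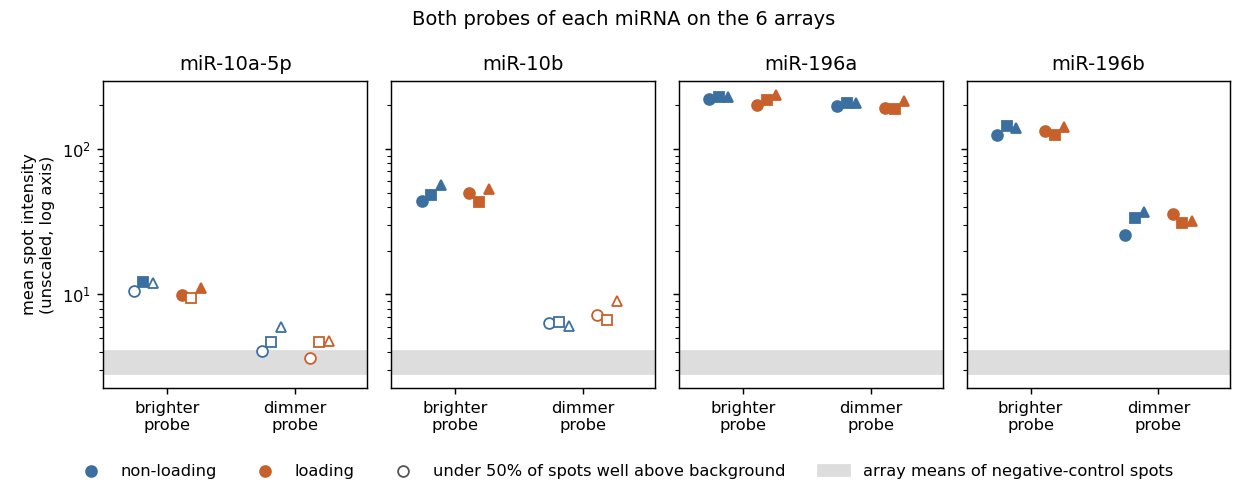
Mean intensity of the spots of each probe before scaling (vertical axis, log scale) on the 6 arrays, non-loading in blue and loading in orange, with open symbols where under 50% of the spots were well above background and a grey band for the array means of the negative controls. Both probes of miR-196a and miR-196b lie far above the band, and the dimmer probe of miR-10a-5p lies at 3.66 to 6.01 units, next to it.

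The hairpin of each member also yields an opposite arm, usually the one that is discarded. The opposite arms miR-10a-3p, miR-10b*, miR-196a* and miR-196b* were detected on 0 of 6 arrays, with at most 1 of 120 spots well above background each. The guide arms were thus the only arms of these 4 hairpins that the scanner software detected, although for miR-10a-5p 0 of 10 spots of either probe were well above background on non-loading replicate 3 and on loading replicate 2. Of the other Hox cluster miRNAs on the array, miR-196c was detected on 2 arrays of each group, with 5 of 120 spots well above background, and it was not tested. It gave 6.66%, 6.58% and 2.66% of the percentile in non-loading cells and 5.21%, 5.82% and 5.19% under loading. miR-196c* and miR-615, which overlaps Hoxc6 and Hoxc5, were detected on 0 of 6 arrays. The Hox cluster miRNAs detected on any array were therefore the 4 members and miR-196c.

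miR-99a, miR-99b and miR-100 belong to the same ancient family as miR-10 by sequence but lie outside the Hox clusters. All 3 were detected on all 6 arrays. miR-99a had a log2 change of -0.28 (standard error 0.13), miR-99b of 0.20 (standard error 0.10) and miR-100 of 0.13 (standard error 0.12), with limma adjusted p = 0.606, 0.606 and 0.724. Of the 3, 0 passed the adjusted test, against 0% of all tested miRNAs, and 0 had an unadjusted p under 0.05, against 9.46%, and their median change was 0.13. For miR-99a, 1 of the 3, the groups did not overlap, against 15.5% of all tested miRNAs, with 191%, 153% and 151% of the percentile on the non-loading arrays and 120%, 149% and 137% on the loading arrays. On the brighter probe of miR-99a alone the groups overlapped, and on the dimmer one they did not. The opposite arms miR-99b* and miR-100* were detected on 0 arrays and miR-99a* on 1.

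Across the 6 arrays, Pearson r was 0.823 between miR-196a and miR-196b. It was 0.775 and 0.708 for miR-10b with miR-196a and miR-196b, 0.734 and 0.524 for miR-10a-5p with the same, and 0.311 between miR-10a-5p and miR-10b. These values describe 6 points that share the scale factors of the arrays. The tested miRNAs most like miR-196a over the 6 arrays were miR-151 (r = 0.987), let-7i (r = 0.958) and miR-125a-3p (r = 0.952). Most like miR-196b were miR-324-5p (r = 0.924), miR-20a (r = 0.914) and miR-106b (r = 0.885). For miR-10b they were miR-34c (r = 0.997), miR-296* (r = 0.950) and miR-181a (r = 0.925), and for miR-10a-5p let-7b (r = 0.874), miR-146b (r = 0.871) and miR-139-3p (r = 0.854). The median r with all other tested miRNAs was 0.36 for miR-196a, 0.42 for miR-196b, 0.40 for miR-10b and 0.04 for miR-10a-5p.

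The spread of miR-196a differed before and after scaling. Before scaling, its summed intensity was 393 to 447 units over the 6 arrays, with an SD of 0.07 on the log2 scale, and after scaling the SD was 0.15. The 75th percentile of the arrays ran from 263 units on loading replicate 2 to 362 units on non-loading replicate 3, the arrays with the highest and the lowest scaled miR-196a. For miR-10b the order was the other way round, with an SD of 0.14 before and 0.06 after scaling. For miR-196b both were 0.10, and for miR-10a-5p they were 0.16 and 0.14.

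The cells were checked against miRNAs of known tissues. Of 8 mesenchymal miRNAs, 7 were detected on all 6 arrays, the exception being miR-145 with 3, and their summed signal, given only to be compared between arrays and with the highest signal from the probes of miR-21, was 13257% to 14381% of the percentile in non-loading cells and 14243% to 14743% under loading. Of the 7 tested, 0 passed an adjusted p of 0.05 in limma, against 0% of all tested miRNAs, and 0 had an unadjusted p under 0.05, against 9.46%. For miR-29a, 1 of the 7, the loading arrays lay above the non-loading arrays without overlap, against 15.5% without overlap among all tested miRNAs. All 4 skeletal muscle miRNAs, miR-1 and miR-206 among them, all 7 epithelial ones, both neuronal ones and the liver miRNA miR-122 were detected on 0 arrays. Of 6 blood and immune miRNAs, miR-223 was detected on 5 arrays (2 without and 3 with loading) and the others on none, and of 2 endothelial ones, miR-126 was detected on all 6 arrays and miR-126* on none. miR-223 gave 6.38% ± 1.81 (SD, n = 3) of the percentile without loading and 8.23% ± 0.822 (SD, n = 3) with it, and miR-126 gave 4.09% ± 1.15 (SD, n = 3) and 4.77% ± 0.762 (SD, n = 3). Their part in the values of the members was not tested. The members were thus measured in cells with mesenchymal miRNAs, with muscle, epithelial and neuronal miRNAs not detected.

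The estimates for miR-196a, miR-196b and miR-10b had the other sign in 6, 6 and 4 of 16 other settings of processing, fit or test, which concerned the background correction, the scaling, the scanner's total gene signal in place of the summed probes (miR-196a and miR-196b) and the slide row as a block.

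**Figure D5:**
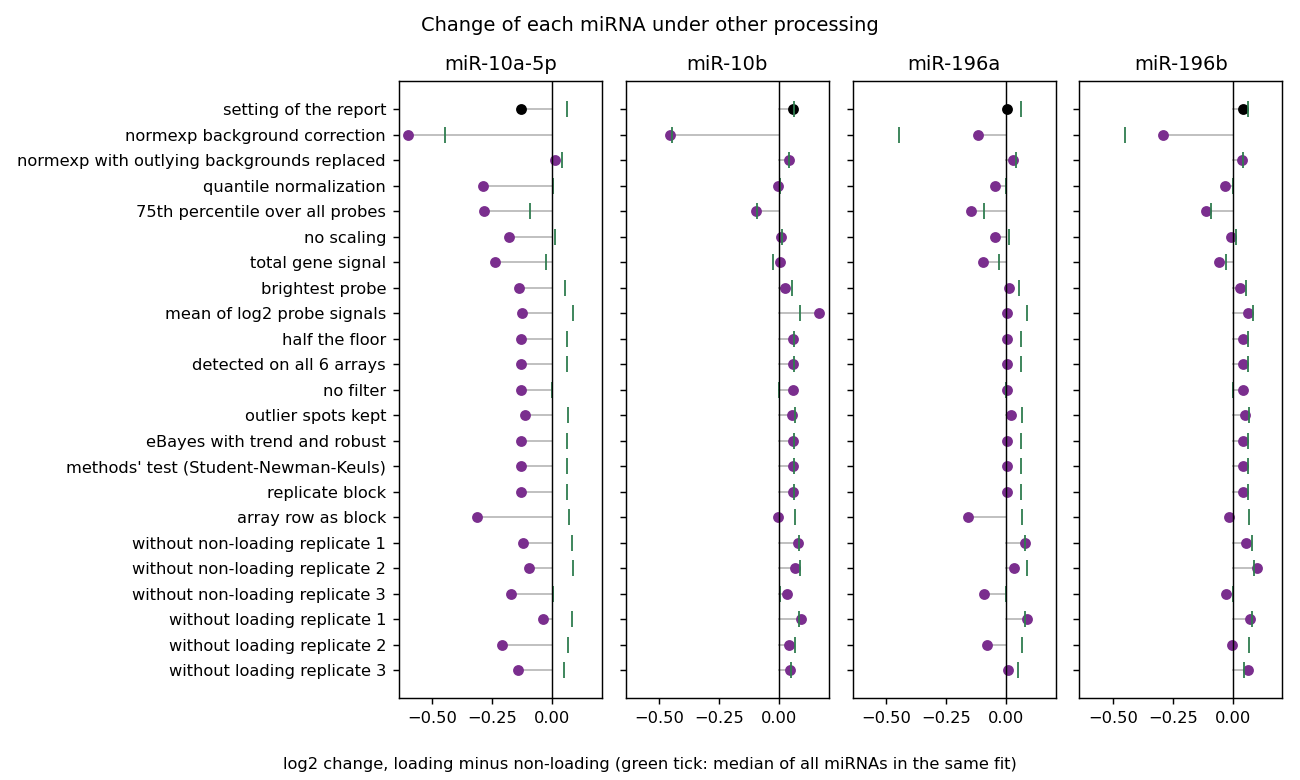
log2 change of each Hox cluster miRNA (horizontal axis) in the setting of the report, in black, and under every other setting, in purple, with a green tick for the median of all miRNAs in the same fit. Normexp background correction moves all 4 miRNAs and the median of all miRNAs, which it puts at -0.45, and miR-10a-5p lies below 0 in all settings except normexp with outlying backgrounds replaced.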

How the data were processed

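The files that the authors deposited are Agilent Feature Extraction output (version 10.7.3.1) of 6 rat miRNA arrays in 1 colour, with background-subtracted intensities of the spots, not scaled between arrays, and with calls of detection. The deposited matrix held these intensities unchanged (largest difference 0) and uncentred, and its column medians were -0.0688, 0.0199 and -2.03 for the non-loading and 0.0533, -0.422 and 0.440 for the loading replicates in order.

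Control spots and spots marked as outliers (2.93% to 4.17% per array) were dropped. The mean of the remaining spots of a probe was scaled to the 75th percentile of the 173 probes with at least 50% of their spots well above background on every array. The probes of each miRNA were added up. Signals under 1.87% of the percentile were raised to this floor (5 of 888 values, 0 of the members) before log2. No spot was saturated (0 on each array).

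Tests covered the 148 of 677 miRNAs that were detected throughout 1 group or both, with lmFit and eBayes of limma 3.58.1 in R 4.3.3 and p-values adjusted after Benjamini-Hochberg. The step was tested on simulated data with planted changes larger than those of the members in the report. Whether it finds changes of their size was not tested. Single values were compared by exact permutation over arrays, whose number limits the precision. Alternatives changed the background correction, scaling, probe summary, floor, filter, outlier spots, test, blocks and arrays. Normexp used the median signal and background with an offset of 50. The members and lists were chosen with earlier results of these data known. Named miRNAs were the 4 members, other Hox cluster miRNAs, relatives with the same seed or within 5 edits along with miR-99a, miR-99b and miR-100, the 3 miRNAs with the highest r for each member, and markers of cell types. miR-99a had no entry under its name among the RefSeq mature sequences, so its seed and its edits from the members were not compared.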

Additional observations from a re-analysis of the deposited data

How the results depend on the processing

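The 4 members stayed above an adjusted p of 0.05 under all 22 other settings (16 of processing, fit or test, and 6 with an array left out), and 2 of their 88 values had an unadjusted p under 0.05, both for miR-10a-5p. The change of miR-10a-5p was -0.602 with normexp, 0.0140 with normexp after replacing outlying backgrounds, -0.284 with the percentile over all probes and -0.313 with the slide row blocked (limma unadjusted p = 0.0594), and -0.21 to -0.04 with an array left out, lowest without loading replicate 2 and highest without loading replicate 1. Its adjusted p ran from 0.438 to 0.997. That of miR-10b was -0.455 with normexp, -0.0040 with quantile normalization, -0.0938 with the percentile over all probes and -0.0021 with the slide row blocked, 0.170 with the mean of log2 probe signals, and 0.03 to 0.09 with an array left out. That of miR-196a was -0.116 with normexp, -0.0456 with quantile normalization, -0.147 with all probes, -0.0449 without scaling, -0.0951 with total gene signals and -0.159 with the row block, and that of miR-196b was -0.289, -0.0341, -0.111, -0.0084, -0.0586 and -0.0147. With an array left out they ran from -0.0917 to 0.0902 and from -0.0287 to 0.103, lowest without non-loading replicate 3, and without loading replicate 2 they were -0.0773 and -0.0047. The median of all miRNAs was -0.45 with normexp and -0.09 with all probes, against 0.06. Row 1 held all non-loading arrays and loading replicate 1, so the row block compares that array with the controls.

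The difference between miR-10a-5p and miR-10b stayed negative, at -0.31 to -0.03 (-0.25 to -0.13 with an array left out), but its groups overlapped with both forms of normexp, total gene signals and the brightest probe. That between miR-196a and miR-196b was 0.173 with normexp, -0.145 with the row block and -0.0726 to 0.0227 with an array left out, with 0.0176 without loading replicate 1. Past an adjusted p of 0.05 were 2 miRNAs in place of 0 with quantile normalization, the brightest probe, detection required on all 6 arrays, outlier spots included, a robust eBayes trend and the methods' test, and 0 whichever array was left out. Past an unadjusted p of 0.05 were 14 in the report (13 higher, 1 lower), 0 with normexp, 8 with outlying backgrounds replaced, 1 with all probes, 4 without scaling, 8 with total gene signals, 7 with the row block, 6 with the replicate block and 6 to 17 with an array left out (7 without loading replicate 1, 6 without loading replicate 3). The higher and lower calls were 8 and 5 with quantile normalization, 3 and 5 with total gene signals, 10 and 4 with the brightest probe, 0 and 1 with all probes, 3 and 1 without scaling, and 8 and 5 without non-loading replicate 3. The cause was not tested.

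Across miRNAs, deviations of same-numbered arrays correlated at -0.69, -0.47 and 0.11. These cannot settle pairing without other pairs. The replicate block left the members' changes as they were, with limma adjusted p from 0.850 to 0.986. Slide and scan were no blocks, with 1 of each. Signal over background limits miR-10a-5p, with 27 of 120 spots well above it.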
